A study of Mus musculus with 6 samples.

Results

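Messenger RNAs of 39 nuclear genes for the respiratory chain, its assembly and mitochondrial protein import were examined in the prefrontal cortex of mice that did or did not respond to ketamine. They were chosen by name from the 1375 genes of the deposited table (the symbol families Nduf, Cox, Uqcr, Atp5, Sdh, Cyc1, Coa, Timm and Tomm followed by a number or letter, with 1 pseudogene left out). Each belongs to a list of 137 genes of these complexes drawn up from their known roles. Of that list, the table held 12 of 36 complex I subunits, 2 of 4 of complex II, 3 of 9 of complex III, 4 of 19 of complex IV and 4 of 19 genes of ATP synthase. It also held 6 of 25 assembly factors and 8 of 25 translocase genes. The other genes of the list were not analysed here. The members lay on 16 chromosomes. All 39 passed a filter of at least 10 reads in at least 3 libraries, with 43 to 20433 reads per gene and library.

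All 6 mice were male C57bl/6j siblings, kept 3 to a cage, and all had received 10 mg/kg ketamine intraperitoneally 24 hours before they were killed. The 3 nonresponders (NR) and 3 responders (Res) were told apart by novelty suppressed feeding and forced swimming, 2 behavioural tests of antidepressant action. No untreated mice were among the samples, so values are set between the groups and not against a baseline, and the age of the mice is not given in the sources used here. Tissue RNA came from whole prefrontal cortex of each mouse without sorting, so fewer cells of a type and less RNA per cell cannot be told apart.

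The respiratory chain passes electrons from complex I and complex II through ubiquinone, complex III and cytochrome c to complex IV, and ATP synthase uses the proton gradient that results. A small set of subunits is encoded in the mitochondrial genome, while the rest are made in the cytosol and enter through the translocases of the outer (Tomm) and inner (Timm) membrane. Neurons depend on this pathway for the ATP that drives ion pumping and transmission at synapses. Several transcription factors, among them NRF1, GABP, YY1 and the estrogen-related receptors (ERR), are known to act at promoters of such genes.

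Promoters are shown for Ndufs6 and Ndufa12, which had 2 of the 3 smallest p-values when responder 3 was left out (Uqcrb had the smallest), and for Cox6a1, the most abundant member by FPKM, chosen after its motif matches were seen. Each runs from 250 bases before to 50 after the gene start in RefSeq (build GRCm38.p6), 5′ to 3′ on the gene's strand, and capitals mark motif matches. The windows are chr13:73328433-73328732 on the minus strand for Ndufs6, chr10:94198785-94199084 on the plus strand for Ndufa12 and chr5:115348909-115349208 on the minus strand for Cox6a1.
Ndufs6: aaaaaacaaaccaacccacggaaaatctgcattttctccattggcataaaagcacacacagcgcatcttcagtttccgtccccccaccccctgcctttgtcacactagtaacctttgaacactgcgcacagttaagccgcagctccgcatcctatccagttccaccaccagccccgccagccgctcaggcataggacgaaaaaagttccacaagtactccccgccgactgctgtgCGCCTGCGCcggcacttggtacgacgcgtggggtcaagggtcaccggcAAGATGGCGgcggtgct
Ndufa12: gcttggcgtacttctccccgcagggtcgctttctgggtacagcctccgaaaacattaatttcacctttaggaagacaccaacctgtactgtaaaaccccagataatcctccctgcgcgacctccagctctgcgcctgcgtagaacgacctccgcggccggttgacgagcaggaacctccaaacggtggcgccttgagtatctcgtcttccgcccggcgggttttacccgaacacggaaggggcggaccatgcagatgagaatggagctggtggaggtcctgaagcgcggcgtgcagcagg
Cox6a1: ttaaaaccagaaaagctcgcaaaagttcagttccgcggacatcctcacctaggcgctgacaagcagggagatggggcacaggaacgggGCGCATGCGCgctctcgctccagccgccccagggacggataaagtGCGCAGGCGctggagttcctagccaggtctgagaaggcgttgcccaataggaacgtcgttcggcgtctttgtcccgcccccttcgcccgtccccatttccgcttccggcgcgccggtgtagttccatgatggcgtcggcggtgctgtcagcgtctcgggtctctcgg
Counted from 1 at the 5′ end, Ndufs6 held a match to the NRF1 motif at position 236 and one to the YY1 motif at position 284. Cox6a1 held NRF1 matches at positions 89, 90 and 134, of which the first and second overlap on opposite strands, and none of the searched motifs was in the Ndufa12 window. The motifs were GCGCANGCG for NRF1, CCGGAAGT for GABP, AAGATGGCG for YY1 and TCAAGGTCA for ERR, searched on both strands. Among the 31 members with a promoter entry, 10 held the NRF1 motif, 4 the GABP motif, 2 the ERR motif and 1 the YY1 motif. In all 17491 protein-coding promoters of the same length, the shares were 9.63% for NRF1, 5.69% for GABP, 0.377% for ERR and 2.14% for YY1. Among the 962 other listed genes with an entry, the shares were 17.2% for NRF1, 9.04% for GABP, 0% for ERR and 4.37% for YY1. As 79.5% of the members had an entry, below the 80% set for such a check, a comparison of shares is void. The NRF1 and YY1 letters were also shortened after counts with longer forms had been seen. The counts only describe these windows.

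Responder 3 stood apart from the other 5 libraries, so medians of the complexes and counts of calls by edgeR are given with and without it, and single genes library by library. The authors' table held only genes higher in responders with an unadjusted p-value below 0.05. The direction of every member was thus fixed by that selection and is no finding. The fits reported below used the same libraries and only these selected genes, so their p-values describe the values and are no tests of discovery. Reads over the listed genes summed to between 1989534 and 2344489 in nonresponders and between 2430688 and 3486903 in responders. The median FPKM (fragments scaled by gene length and by library size) over all listed genes was 9.48 to 10.0 in nonresponders, 11.4 and 11.9 in responders 1 and 2, and 18.8 in responder 3. Reads of the 39 members made up between 2.36% and 2.73% of the listed reads in each library, with 95% Wilson intervals no wider than 0.0219 percentage points to either side, which cover counting error only. These shares overlapped between the groups. Summed over the members, FPKM came to 1584, 1423 and 1430 in nonresponders and to 1702, 1658 and 3536 in responders.

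On the authors' library scale the members were higher in responders by a median of 1.57-fold (1.18 to 2.64), beside 1.48-fold over all listed genes, a direction that 14 of the 39 did not keep under TMM scaling. Without responder 3 the members' median was 1.13-fold (1.02 to 1.49), beside 1.20-fold over all listed genes. TMM scaling from the listed genes, which sets the bulk of this selected table to no change, moved the median over all listed genes, as a log2 difference, from 0.57 to 0.01 and that of the members from 0.65 to 0.05. No member had an adjusted p-value below 0.05 in the authors' deposited table, where 1.38% of all listed genes did. The members' p-values in the authors' deposited table lay between 0.00275 and 0.0483, and their adjusted p-values between 0.128 and 0.325. In edgeR's quasi-likelihood test on the deposited counts, 0 of 39 members passed an adjusted p of 0.05, where 0% of the listed genes did, and 6 had an unadjusted p below 0.05, where 26.5% of the listed genes did. These 6 were Timm21, Ndufs6, Cox6a2, Uqcrb, Ndufa12 and Timm17a. DESeq2 called 0 members after adjustment and 15 before it, where 0.0727% and 42.5% of the listed genes were called. When responder 3 was left out, edgeR called 2 members after adjustment, where 5.45% of the listed genes were called, and 17 before it, where 60.2% were. Leaving out nonresponder 1, 2 or 3 left 1, 0 and 0 members with an unadjusted p below 0.05, where 7.35%, 6.33% and 8.51% of the listed genes had one. Leaving out responder 1 or 2 gave 24 such members each, where 57.2% and 40.7% of the listed genes passed, and none after adjustment.

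The 3 responders lay above all 3 nonresponders in 24 of the 39 members, beside 73.5% of all listed genes, and in the other 15 members the groups overlapped. Leaving out responder 3 could not change the count of 24, as it was never the lowest responder in a member. Without it the groups were separate in 74.1% of all listed genes. Responder 3 was the highest library in 39 of 39 members and in 87.6% of all listed genes. Responder 1 lay above every nonresponder in 31 members and responder 2 in 32. Over all listed genes each did so in at least 74.1%, the share in which both did. Within groups, the SD had a median of 6.77% of the mean in nonresponders and 48.8% in responders (n = 3 each). Nonresponder 1 was the highest of its group in 27 members, a count not made over all listed genes.

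**Figure D1:**
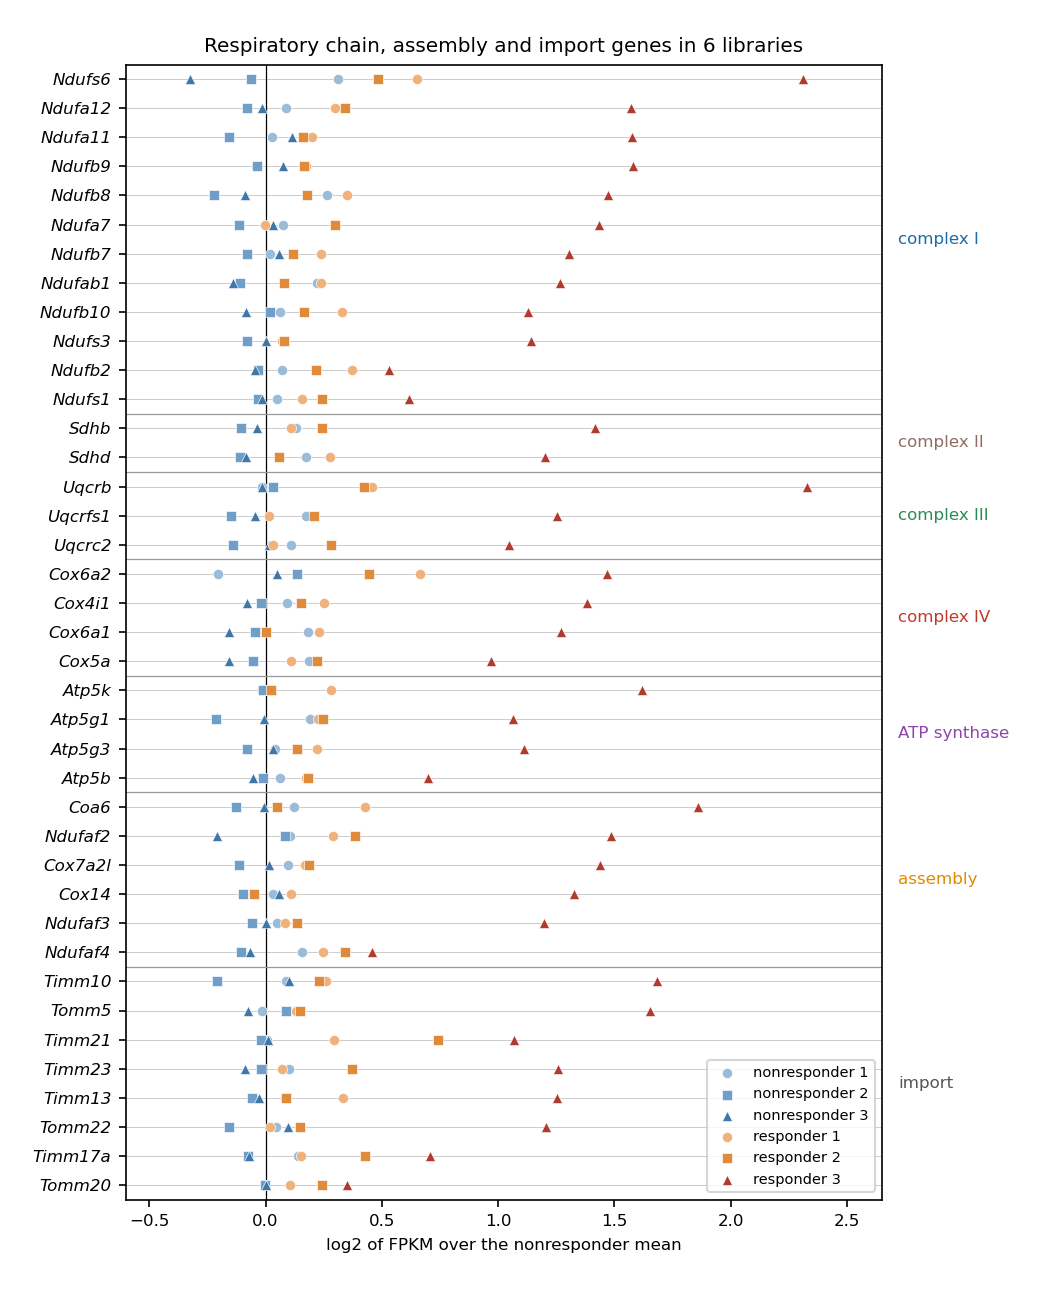
FPKM of each of the 39 members in each of the 6 libraries, on the horizontal axis as log2 of the value over the mean of the 3 nonresponders, on the authors' library scale, with genes in rows by complex and 1 point per mouse. Responder 3 is the rightmost point in all 39 rows, while responders 1 and 2 lie close to the nonresponders and overlap them in 15.

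Complex I, the NADH dehydrogenase and the entry point of most electrons, had 12 members, whose log2 differences had a median of 0.69, and of 0.19 without responder 3. Ndufs6, an accessory subunit of the peripheral arm (ENSMUSG00000021606, chr13:73319838-73328542 in mm10, minus strand), had FPKM of 19.9, 15.4 and 12.8 in nonresponders and 25.2, 22.4 and 79.5 in responders. All 3 responders were above all 3 nonresponders, and responder 3 was 3.34-fold above the mean of the other responders. Its fold of 2.64 was the largest of the 39 (edgeR unadjusted p = 0.0280, adjusted p = 1). Without responder 3 its log2 difference was 0.57 (SE 0.14) with an edgeR adjusted p of 0.0442. Leaving out any other single library gave it an adjusted p of 0.881 to 1.

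Ndufa12, an accessory subunit that takes the place of the assembly factor Ndufaf2 in the mature complex in human cells, stood at 29.4, 26.2 and 27.4 in nonresponders and 34.1, 35.1 and 82.4 in responders. The groups were separate, and its p-value of 0.00275 was the smallest of the members in the authors' deposited table. Its edgeR unadjusted p without responder 3 was 0.00179, with an adjusted p of 0.136. Ndufb8, an accessory subunit of the membrane arm, stood at 13.6, 9.75 and 10.7 in nonresponders and at 14.5, 12.8 and 31.5 in responders, so that responder 2 lay below nonresponder 1. Ndufa11, another membrane-arm subunit, had 29.2, 25.6 and 30.9 against 32.8, 32.0 and 85.1, with separate groups. The most abundant listed subunit of complex I was Ndufb10, at 47.2, 45.8 and 42.7 against 56.8, 50.7 and 98.9.

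The core subunits carry the redox centres or the proton channels, and the table held 2 of the 7 encoded in the nucleus. Ndufs1, the largest iron-sulfur subunit, had FPKM of 14.5, 13.7 and 13.8 in nonresponders and 15.6, 16.6 and 21.5 in responders, which did not overlap. Ndufs3 stood at 24.8, 22.3 and 23.6 against 24.8, 24.9 and 52.1, so that responder 1 reached no further than nonresponder 1. The median log2 difference was 0.44 over the 2 core subunits and 0.75 over the 10 accessory subunits, or 0.14 and 0.21 without responder 3. Ndufb2, an accessory subunit singled out after its values were seen, differed from most others in that responder 3 (3.89) was 1.18-fold above the mean of responders 1 and 2 (3.49 and 3.13).

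Complex II, the succinate dehydrogenase shared with the citric acid cycle, had 2 members. The groups overlapped in both, while they were separate in 73.5% of all listed genes. Sdhb, the iron-sulfur subunit of the complex, stood at 38.1, 32.4 and 33.9 in nonresponders and 37.6, 41.2 and 93.0 in responders. Sdhd, a membrane anchor, stood at 40.9, 33.7 and 34.3 against 44.02, 37.7 and 83.4. In each, 1 of the responders 1 and 2 lay below nonresponder 1, and responder 3 was 2.36-fold and 2.04-fold above the mean of those responders. The median log2 difference of the complex was 0.66, or 0.17 without responder 3.

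In complex III, Uqcrb, a small subunit near the ubiquinone site (ENSMUSG00000021520, chr13:66900617-66905378 in mm10, minus strand), had the largest excess in responder 3 of any member. Its FPKM was 32.9, 33.96 and 32.9 in nonresponders and 45.7, 44.6 and 167 in responders. The nonresponders lay within a narrow band, responders 1 and 2 above it, and responder 3 was 3.69-fold above the mean of those responders. Without responder 3 the log2 difference was 0.44 (SE 0.10) with an edgeR adjusted p of 0.0233, while with all libraries the unadjusted p was 0.0326 and the adjusted p 1. Uqcrfs1, the Rieske iron-sulfur protein, stood at 66.7, 53.4 and 57.4 against 59.8, 68.3 and 141. Uqcrc2, a core protein of the matrix side, stood at 58.0, 48.7 and 54.3 against 54.9, 65.1 and 111. In both, responder 1 lay below nonresponder 1. The median of the 3 genes was 0.60 on the log2 scale, 0.16 without responder 3 and -0.0077 under TMM scaling.

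Complex IV, the cytochrome c oxidase, had 4 members in the table, of which 2 are isoforms of the same subunit. Cox6a1, the isoform of most tissues and of brain, stood at 282, 241 and 223 FPKM in nonresponders and 292, 249 and 599 in responders. Cox6a2, the isoform of heart and skeletal muscle, stood at 3.39, 4.28 and 4.04 against 6.17, 5.31 and 10.8. The groups were separate in Cox6a2 but not in Cox6a1, where responder 2 lay below nonresponder 1. Without responder 3 the log2 differences were 0.56 (edgeR SE 0.29) in Cox6a2 and 0.12 (edgeR SE 0.09) in Cox6a1. The value of Cox6a2 rests on few reads, 43, 50 and 53 in nonresponders and 77, 59 and 110 in responders. The difference between the isoforms was not tested. Cox4i1, a subunit through which adenine nucleotides regulate the enzyme, stood at 192, 178 and 171 against 214, 200 and 470, with separate groups. Cox5a stood at 29.9, 25.3 and 23.6 against 28.3, 30.6 and 51.4, with overlap.

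ATP synthase had 4 members, whose median on the log2 scale, 0.56, was the lowest of the 5 complexes with all libraries. Without responder 3 it was 0.18, above complex II and complex III, and under TMM scaling it was -0.0099. Atp5b, the catalytic beta subunit, had FPKM of 207, 197 and 191 in nonresponders and 223, 225 and 322 in responders. The groups were separate, and responder 3 was 1.44-fold above the mean of the other responders. Atp5g1 and Atp5g3 encode the same mature c subunit of the rotor ring. Atp5g1 stood at 16.3, 12.3 and 14.2 against 16.7, 17.0 and 29.8, and Atp5g3 at 45.2, 41.6 and 44.998 against 51.3, 48.2 and 94.997. Both pairs of groups were separate. Atp5k, subunit e, which takes part in dimer formation, stood at 14.8, 14.8 and 15.2 against 18.1, 15.2 and 45.9, where responder 2 and nonresponder 3 met.

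**Figure D2:**
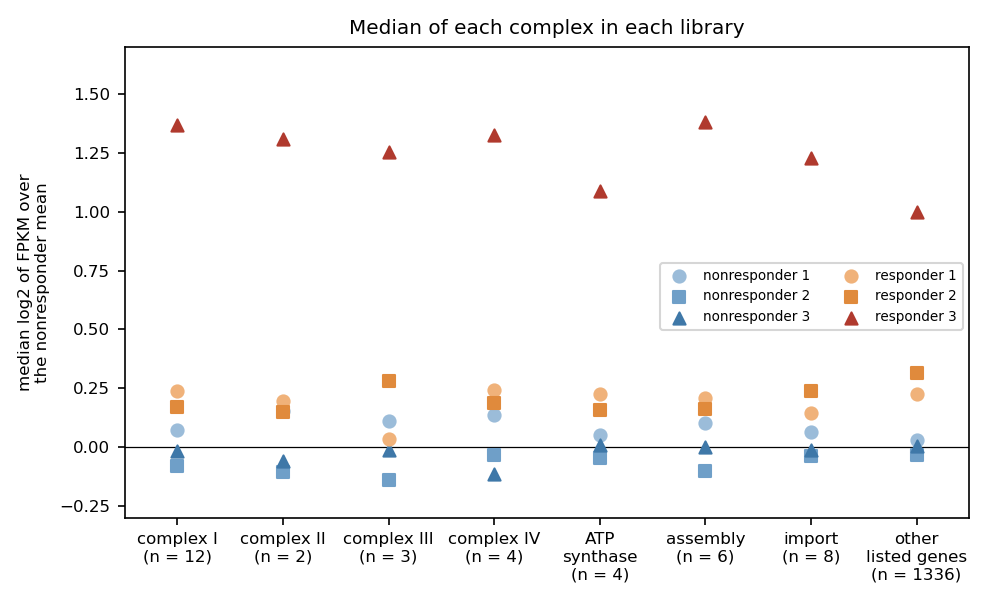
Median over the genes of each complex of log2 of FPKM over the nonresponder mean (vertical axis), for each of the 6 libraries, with the 1336 other listed genes at the right and 1 point per mouse. Responder 3 lies at 1.09 for ATP synthase to 1.38 for the assembly factors, beside 1.00 for the other listed genes, and responders 1 and 2 lie between 0.03 and 0.28 in every complex.

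Among the assembly factors, the 3 for complex I (Ndufaf2, Ndufaf3 and Ndufaf4) had separate groups, beside 73.5% of all listed genes. Ndufaf2 stood at 3.22, 3.17 and 2.59 FPKM in nonresponders and 3.66, 3.90 and 8.38 in responders, but 65.6% of its gene length lies under exons of the lincRNA B230220B15Rik on the opposite strand. Strand use in the counting is not given in the sources used here, so reads of these genes cannot be told apart. Ndufaf4 stood at 7.66, 6.37 and 6.56 against 8.14, 8.70 and 9.43, with responder 3 1.12-fold above the mean of the other responders, the smallest excess of the 39 members. Ndufaf3 stood at 10.3, 9.53 and 9.94 against 10.5, 10.9 and 22.7. Of the 3 complex IV factors, 1 had separate groups, again beside 73.5% of all listed genes. Coa6, which takes part in the delivery of copper, stood at 12.04, 10.1 and 11.03 against 14.9, 11.5 and 40.1, so that responder 2 lay below nonresponder 1. Cox14, which acts early in the assembly of Cox1, stood at 37.3, 34.1 and 38.0 against 39.3, 35.2 and 91.5, and had the smallest log2 difference without responder 3, 0.03. Cox7a2l, a factor linked to supercomplexes of complex III and complex IV, stood at 71.8, 62.0 and 67.8 against 75.5, 76.5 and 182. It was the one with separate groups.

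Over the 8 import genes the log2 differences had a median of 0.65, which was 0.22 without responder 3. In the outer membrane, the presequence receptor Tomm20 stood at 65.6, 65.6 and 65.7 FPKM in nonresponders and 70.6, 77.7 and 83.5 in responders. Its 1.18-fold difference was the smallest of the 39 members, though the groups were separate. Tomm22, the central receptor, stood at 25.5, 22.1 and 26.4 against 24.99, 27.3 and 56.9, with responder 1 below nonresponders 1 and 3. Tomm5, a small subunit of the pore complex, stood at 16.1, 17.3 and 15.5 against 17.8, 18.05 and 51.2, with separate groups.

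In the inner membrane, Timm21, which links the presequence translocase to the outer membrane and to assembling complexes, stood at 4.56, 4.47 and 4.57 against 5.55, 7.58 and 9.49. The nonresponders were nearly level, and the 3 responders were spread above them. Its log2 difference without responder 3 was 0.53, beside 0.73 with it. Timm17a, a channel subunit, stood at 9.16, 7.89 and 7.91 against 9.26, 11.2 and 13.6, and Timm23, its partner, at 19.96, 18.4 and 17.5 against 19.6, 24.1 and 44.5. Responder 1 lay close to nonresponder 1 in both, above it in Timm17a and below it in Timm23. Timm10 and Timm13, chaperones that carry membrane proteins across the intermembrane space, had separate groups. Timm10 stood at 13.9, 11.4 and 14.1 against 15.7, 15.4 and 42.1, and Timm13 at 15.9, 14.4 and 14.7 against 18.9, 15.9 and 35.8.

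The remaining 4 members were complex I subunits. Ndufb9 and Ndufb7 had separate groups, while in Ndufa7 and Ndufab1, the latter the mitochondrial acyl carrier protein, a responder lay at or below the highest nonresponder. Their log2 differences without responder 3 ranged from 0.16 to 0.18.

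The FPKM of responder 3 was a median of 2.18-fold (1.12 to 3.69) above the mean of responders 1 and 2 in the members and 1.62-fold over all listed genes. Related lists had medians of 2.03-fold (further assembly factors, 7 genes) and 2.03-fold (import motor, sorting and processing, 11 genes). The lists above the members' median held 2 genes each, electron carriers and their enzymes (2.83-fold) and markers of inhibitory neurons (2.30-fold). Medians were 1.85-fold for carriers and porins, 1.83-fold for the citric acid cycle, 1.69-fold for the mitochondrial genome and 1.14-fold for transcription factors. Microglial, leptomeningeal and astrocyte markers had 1.93-fold, 1.85-fold and 1.27-fold. A median of about 2-fold was thus not particular to the members. The excess was at least 2-fold in 26 of 39 members (66.7%) and in 31.0% of all listed genes. It was under 1.5-fold in 7 members. By complex the median excess ran from 1.84-fold in ATP synthase to 2.30-fold in the assembly factors. These are values of 1 mouse, with no replicate check.

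**Figure D3:**
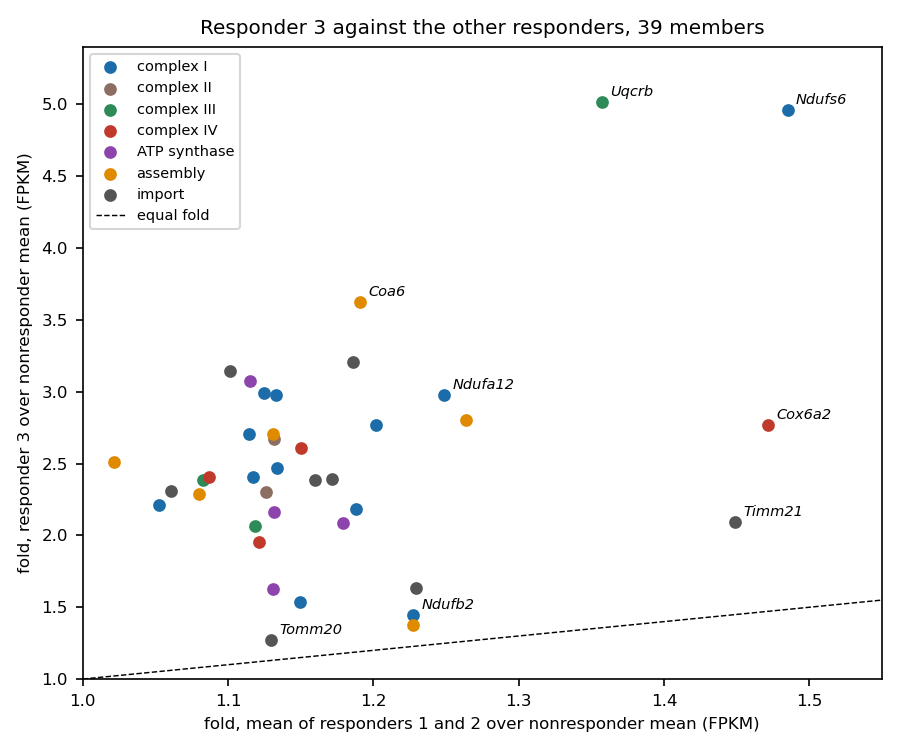
Fold of responder 3 over the nonresponder mean (vertical axis) against the fold of the mean of responders 1 and 2 over it (horizontal axis), both from FPKM, with 1 point per member coloured by complex. All 39 points lie above the dashed line of equal fold, and Uqcrb and Ndufs6 stand highest.

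The excess in responder 3 was larger in shorter genes. Across the 39 members, Spearman's correlation between the deposited gene length and this excess was -0.67 (Pearson's r of log10 length and log2 excess, -0.70). Across the 1216 other listed protein-coding genes Spearman's correlation was -0.45. With coding length the order was the other way, at -0.45 in the members and -0.52 in the other genes. All points share the same 3 libraries, and genes are not independent replicates. The members were short, with a median coding length of 438 bases beside 783 for the other listed protein-coding genes. Among genes with under 500 coding bases, the median excess was 2.22-fold in 23 members and 2.08-fold in 287 other genes. From 500 to 1000 coding bases it was 2.12-fold in 13 members and 1.66-fold in 499 others. From 1000 to 2000 coding bases it was 1.64-fold in 2 members (Atp5b and Uqcrc2) and 1.37-fold in 360 others. Ndufs1, with the longest coding sequence, had 1.33-fold beside 1.09-fold in 70 others. Whether length plays a part in the members' excess was not tested.

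**Figure D4:**
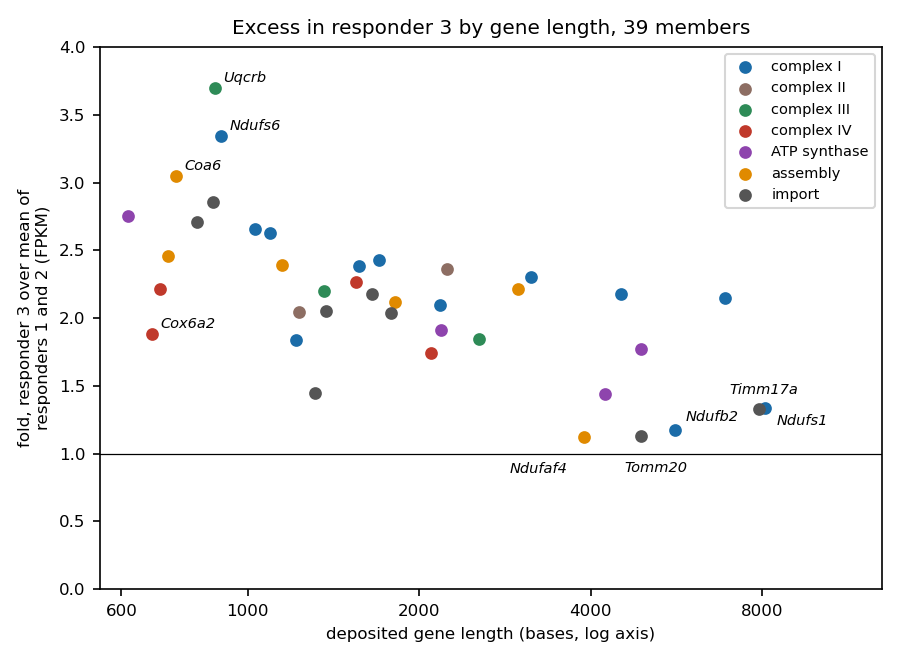
Fold of responder 3 over the mean of responders 1 and 2 (vertical axis, FPKM) against the deposited gene length in bases (horizontal log axis), with 1 point per member coloured by complex. Uqcrb, Ndufs6 and Coa6, at the short end, lie above 3, and the longest members, Ndufs1 and Timm17a, lie at 1.33.

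Some members share sequence with other loci. Near copies, with at least 95% identity over at least 80% of the coding sequence, were found for 9 members, at 17 loci of which 0 were in the table. Uqcrb had 3 such pseudogenes (Gm5457, Gm16089 and Gm2962), Timm23 had 5 copies and Ndufa12 had 1 (Gm15920), and how the authors counted reads that match several places is not given in the sources used here. Values of these members, and of Ndufs3, Atp5g1, Ndufab1, Atp5k, Timm17a and Tomm20, are therefore uncertain. Exons of 18 members overlap another gene, in 15 of them on the opposite strand. After Ndufaf2, the largest overlaps were those of Uqcrc2 with Pdzd9 on the opposite strand (19.7% of its gene length), Ndufb9 with Gm49356 on the same strand (19.5%) and Coa6 with Tarbp1 on the opposite strand (14.1%). Ndufs6 overlaps Mrpl36, which was also listed, over 3.34%.

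Further genes of the pathway came from lists of 132 genes outside the naming rule, of which 42 were in the table. None of these 42 passed an adjusted p of 0.05 in the authors' deposited table or in edgeR with all libraries, where 1.38% and 0% of the listed genes did. Of the 13 proteins encoded in the mitochondrial genome, 8 were listed, and their log2 differences had a median of 0.60 (0.26 without responder 3). The complex I gene mt-Nd1 stood at 4830, 4886 and 5229 FPKM in nonresponders and 5249, 6626 and 11952 in responders. For mt-Co1, a core of complex IV, the values were 9521, 8932 and 10149.9 against 10273, 11984 and 23582. Both of these had separate groups, as did mt-Nd4l, while the groups overlapped in the other 5 listed genes of the mitochondrial genome. Over all listed genes the groups were separate in 73.5%. Responder 3 was the highest library in 7 of the 8, beside 87.6% of all listed genes, and responder 2 in mt-Nd4l.

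Other assembly factors were listed in 7 of 35 cases, at a median log2 difference of 0.62 (0.34 without responder 3). Tmem70, needed to assemble ATP synthase, stood at 16.5, 16.8 and 17.6 FPKM in nonresponders and 19.6, 24.3 and 44.4 in responders, and Tmem126b, an assembly factor of complex I, at 5.42, 5.39 and 5.79 against 6.66, 7.38 and 10.5. Electron carriers and their enzymes were listed in 2 of 18 cases. Cytochrome c (Cycs) stood at 20.6, 19.7 and 19.7 against 24.6, 25.9 and 75.7, and Coq7, of ubiquinone synthesis, at 2.22, 2.15 and 2.25 against 2.32, 2.88 and 6.93. Both genes were highest in responder 3, as were 87.6% of all listed genes, and had separate groups, as did 73.5%.

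Import motor, sorting and processing genes were listed in 11 of 26 cases, with a median of 0.61, or 0.22 without responder 3. Minos1, of the cristae-organising MICOS complex, stood at 15.5, 15.7 and 16.3 against 18.6, 19.4 and 48.5, and the chaperonin Hspd1 at 57.9, 57.1 and 57.6 against 64.6, 74.6 and 87.8. Carriers and porins were listed in 5 of 11 cases (median 0.51, or 0.20) and genes of the citric acid cycle and pyruvate dehydrogenase in 7 of 17 (median 0.54, or 0.18). The outer membrane channel Vdac3 stood at 20.3, 19.6 and 20.04 against 21.4, 24.6 and 49.98, and the pyruvate carrier subunit Mpc2 at 6.54, 5.68 and 6.06 against 7.19, 6.82 and 13.7. For the subunits of succinyl-CoA synthetase, Suclg2 had 2.61, 2.66 and 2.99 against 3.22, 3.997 and 4.81, and Suclg1 had 14.7, 13.1 and 14.5 against 16.5, 16.2 and 32.6. The groups were separate in each of these 6 genes, which were named for their small deposited p-values, and in 73.5% of all listed genes.

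Of 12 transcription factors and coactivators of mitochondrial genes, 2 were listed. Gabpa, the DNA-binding subunit of GABP, stood at 4.16, 3.51 and 3.82 in nonresponders and 5.19, 5.42 and 4.53 in responders, with its highest value in responder 2. Without responder 3 its edgeR adjusted p was 0.0331, while no call was made with all libraries. Tfam, which packages and transcribes mitochondrial DNA, stood at 7.08, 6.49 and 7.19 against 7.81, 8.30 and 11.4.

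Some cell type markers were in the table, their direction fixed by the same selection, and none passed edgeR's adjusted p of 0.05 with all libraries. An adjusted p below 0.05 stood in the authors' deposited table for 1 marker of astrocytes and 1 of leptomeninges. The table held 4 of 7 astrocyte markers, whose FPKM summed to 192 to 217 in nonresponders and 245 to 333 in responders (245 to 266 without responder 3). The 5 listed of 8 microglial markers summed to 72.1 to 84.6 and 94.96 to 192 (94.96 to 96.7 without responder 3). It held 5 of 7 leptomeningeal markers, with sums of 7.45 to 8.98 and 12.5 to 19.3 (12.5 to 13.7 without responder 3). For 2 of 6 markers of inhibitory neurons the sums were 20.1 to 28.7 and 25.6 to 61.7 (25.6 to 27.9 without responder 3), and these overlapped between the groups. Such sums weigh the most abundant genes most, such as Aldoc in astrocytes and Igfbp2 in leptomeninges. Among the single listed markers, the groups overlapped in Ogn, Tyrobp and Pvalb. None of these listed markers was at 0 in a library, and none of the markers of excitatory neurons, oligodendrocytes, endothelium or choroid plexus was in the table, so the tissue could not be checked against them. The part of cell makeup in the members' differences was not tested.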

How the data were processed

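Messenger RNA of 6 prefrontal cortices was sequenced after preparation with a SMARTER kit, per the labels' protocols. Per the submitters' processing notes the build was mm10. Neither aligner nor counting tool nor strand setting is given in the sources used here. Per gene, the deposited table gives whole read counts, FPKM values, a log2 fold change of nonresponders over responders, a p-value and an adjusted p-value for 1375 genes, which the authors had selected. The authors' FPKM equals the count over gene length and over 1 scale number per library (14981505 to 19298950). That scale served as library size, as the depth outside the table is unknown. Another 6 columns of values match no label and were not used.

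All 1375 genes were fitted with edgeR 4.0.16 (quasi-likelihood, robust, two-sided). A trial on simulated counts gave every gene the same dispersion, with no outlying library and no selection by p-value. It therefore does not check the fit under the conditions of these data. Benjamini-Hochberg adjustment counted 14156 tests, a number inferred from the authors' deposited adjusted p-values, of which 90 of 120 examined genes gave a whole rank within 0.01. Folds are ratios of mean FPKM, with no pseudocount and no filter. Alternatives used DESeq2 1.42.0, limma 3.58.1 on log2(FPKM + 1), other scalings, a count filter, a replicate block and the omission of each library. Each library came from a different mouse. Same-numbered mice did not deviate together, so numbers were not taken as pairs. Near copies were found with blastn 2.17.0. The letters searched for NRF1 and YY1 were shortened to core forms after counts with longer forms had been seen.

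The members and lists were chosen with earlier results of these data known. Named genes were, in each role, up to 4 members with the smallest deposited p-value and the most abundant one, members called without a responder library, and 2 genes per further list. Members outside that rule are named to complete the account.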

Additional observations from a re-analysis of the deposited data

How the results depend on the processing

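The size of most differences changed with the library scaling. With TMM scaling from the listed genes, the median log2 difference over all listed genes was 0.01 in place of 0.57. That of the members was 0.05 in place of 0.65, with 25 members above and 14 below 0. The groups were separate in 2 members and in 97 of the 1375 listed genes. With counts per listed total the medians of all listed genes and of the members were 0.04 and 0.09, with 29 members above and 10 below 0. The groups were then separate in 2 members and in 111 of the 1375 listed genes. The selected table holds only genes higher in responders, so both scalings remove a shift by construction. Which scale is right was not tested. Under TMM the medians of complex III and ATP synthase were -0.0077 and -0.0099. In the TMM fit the log2 difference was -0.16 in Atp5b, -0.021 in Atp5g3, -0.022 in Cox14, -0.081 in Cox5a, -0.031 in Ndufaf3, -0.14 in Ndufaf4, -0.12 in Ndufb2, -0.17 in Ndufs1, -0.074 in Ndufs3, -0.074 in Timm17a, -0.26 in Tomm20, -0.043 in Tomm22, -0.057 in Uqcrc2 and -0.0070 in Uqcrfs1. The number of members with an unadjusted p below 0.05, 6 in the reported fit, was 2 with TMM, 2 with DESeq2 size factors, 2 with limma and 15 with DESeq2. Beside these stood 26.5% of the listed genes in the reported fit and 42.5% with DESeq2. No share was taken for the others, so their counts cannot be read as particular to the members. Leaving out each library in turn gave 0 to 24 such members, beside 6.33% to 60.2% of the listed genes. After adjustment these fits called 0 to 2 members, the 2 being those without responder 3. With a replicate block, 0 members passed after adjustment and 4 before it, and no share of the listed genes was taken. The members' median log2 difference in that fit was 0.55. Same-numbered mice correlated at -0.10, -0.04 and 0.02 in their deviations. The count filter left 6, again with no share taken. Of the alternatives for single members, 257 kept their direction and side of the threshold, 14 changed direction and 2 passed it anew. Setting responder 3 beside the others was chosen after seeing the data. With 3 mice a group and counts for selected genes alone, the depth of the libraries and any lower gene could not be assessed.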
